A study of Mus musculus with 16 samples.

Results

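The genes described here are the 7 core genes of MHC class II antigen presentation on the array: the chains of the classical class II molecules (H2-Aa, H2-Ab1 and H2-Eb1), the chains of the peptide editor H2-DM (H2-DMa and H2-DMb1), the invariant chain Cd74 and the transactivator Ciita. They were taken by name, through the RefSeq accession that the scanner files give for each probe. No measured value entered that step, but the set was chosen with earlier results of these data known. All 7 were found among the 22911 genes named on the array, with 11 of its 56605 probes, and each gene is described by its brightest probe. RNA of brown adipose tissue (BAT) and gonadal white adipose tissue (gWAT) from male C57BL/6NCrSlc mice was hybridized to 1-colour Agilent arrays. The Adipo-Pgam1 KO mice (KO mice below) carried Adipoq-Cre and floxed alleles of Pgam1, a glycolytic enzyme, on both chromosomes (Adipoq-Cre+: Pgam1 flox/flox), and the littermate controls carried the same floxed alleles without Cre (Adipoq-Cre-: Pgam1 flox/flox). There were 4 arrays for each tissue and genotype, 16 in all, from mice of 16 weeks of age, except replicate 4 of the Adipo-Pgam1 KO group in both tissues, which was labelled 14 weeks. The adiponectin promoter directs Cre to adipocytes, so the deletion was not aimed at the leukocytes of the tissue. The labels do not say whether both tissues came from the same animals, and the p-values measure the spread between these arrays.

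MHC class II molecules hold peptides from proteins taken up by a cell and show them to CD4+ T cells. They are made mainly by dendritic cells, macrophages and B cells, and interferon gamma induces them in other cells. In the endoplasmic reticulum the alpha and beta chains assemble around Cd74, which blocks the groove, and in endosomes proteases trim Cd74 to a short peptide that H2-DM exchanges for an antigenic peptide. Ciita does not bind DNA itself. It is recruited by the factors that sit on the X and Y boxes of class II promoters, and its level sets how much class II RNA is made. In adipose tissue, macrophages and dendritic cells carry most class II molecules, and adipocytes have been described as able to express them.

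Promoter sequences are shown because Ciita is thought to act on all of these genes through the same elements. The RefSeq promoter table (build GRCm38.p6, 250 bases before to 50 bases after each start) held 4 of the 7 genes, namely H2-Aa, H2-Eb1, H2-DMa and H2-DMb1. The searches were for the X box core AACNNATG and for the Y box core ATTGG, on both strands and with no overlap between the motifs. The 120 bases before the start are given 5′ to 3′ on the strand of the gene, with matches on that strand in capitals. H2-Eb1 lies at chr17:34305747-34305866 on the plus strand, H2-DMb1 at chr17:34153071-34153190 on the plus strand and H2-Aa at chr17:34287824-34287943 on the minus strand.
H2-Eb1: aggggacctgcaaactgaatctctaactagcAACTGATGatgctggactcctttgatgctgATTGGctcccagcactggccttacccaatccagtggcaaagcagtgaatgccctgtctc
H2-DMb1: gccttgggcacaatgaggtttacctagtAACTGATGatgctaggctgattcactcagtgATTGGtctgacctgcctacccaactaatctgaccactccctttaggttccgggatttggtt
H2-Aa: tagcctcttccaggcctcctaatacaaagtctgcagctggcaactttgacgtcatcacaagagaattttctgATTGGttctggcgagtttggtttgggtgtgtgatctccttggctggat

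In H2-Eb1 and H2-DMb1 the same 8 letters, AACTGATG, preceded ATTGG, with 22 and 23 bases between them. H2-Aa held ATTGG alone, 48 bases before the start. Of the 2 promoters listed for H2-DMa, 1 held ATTGG at position -198 and the other held neither motif. Among the other class II genes searched, the pair with at most 40 bases between its parts was present in H2-Eb2, H2-DMb2 and H2-Ob. Of all 32851 promoters in the table, 8.86% held AACNNATG, 37.4% held ATTGG and 0.344% held the pair in this order on 1 strand. These are matches of letters, and binding was not measured.

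All levels below are log2 values of the scanner's background-subtracted intensity over the 75th percentile of all probes of that array, so that 0 is the brightness of that percentile. Levels of different genes come from different probes and are not compared with each other. The scanner software called at most 62.2% of an array's probes well above its background, and those of all 7 genes were so on all 16 arrays. Pgam1 itself fell in BAT of KO mice, from 7.94 ± 0.11 to 6.20 ± 0.17 (SD, n = 4; limma, adjusted p = 1.11e-05). In gWAT it went the other way, from 5.36 ± 0.29 in controls to 6.31 ± 0.25 on the gWAT arrays that carry the label Adipo-Pgam1 KO (SD, n = 4; limma, adjusted p = 0.0139), so these are called the KO-labelled gWAT arrays throughout, and every direction in gWAT rests on the label. Brown adipocyte markers separated the same gWAT groups, with 3 of 4 tested higher on the KO-labelled arrays (Cidea, Elovl3 and Cox7a1), where 9.99% of all genes were. Their summed level was at least 64.3 against at most 20 in controls. The tissue labels matched their markers in the controls, with 7 of 7 brown adipocyte markers higher in BAT and 5 of 5 gonadal fat markers higher in gWAT. Of all genes, 64.7% passed in either direction and 29.3% were higher in gWAT. The arrays lay on 3 slides. Slide 1 held controls 1 to 3 of BAT. Slide 2 held control 4 and the 4 KO arrays of BAT with controls 1 to 3 of gWAT, and slide 3 held control 4 and the 4 KO-labelled arrays of gWAT.

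In BAT, all 3 genes of classical class II chains were more highly expressed when Pgam1 was deleted, by about 3.5 to 4-fold. H2-Aa, the alpha chain of the I-A molecule, stood at 1.56, 1.49, 1.83 and 1.91 in the control arrays and at 4.10, 3.47, 3.44 and 3.77 in KO mice. Its log2 change was 2.0 (standard error 0.17, limma, adjusted p = 2.94e-05), a 4.0-fold difference. H2-Ab1, which encodes the beta chain of I-A, was 4.82, 4.77, 5.02 and 5.18 in controls and 7.02, 6.66, 6.46 and 6.84 in KO mice. The lowest KO array was thus well above the highest control for both chains of I-A. The log2 change of H2-Ab1 was 1.80 (standard error 0.15, adjusted p = 2.59e-05), and its other 3 probes, all well above background on all 16 arrays, changed by 1.78, 1.85 and 1.92. H2-Eb1 encodes the beta chain of I-E, whose alpha chain gene H2-Ea is defective in C57BL/6 mice. It stood at 4.56, 4.48, 4.63 and 5.02 in controls and at 6.95, 6.25, 6.14 and 6.61 in KO mice, which is 1.81 higher (standard error 0.20, adjusted p = 9.21e-05). Replicate 1 was the highest KO array for all 3 chains.

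The genes that load these chains with peptide rose in parallel. H2-DMa, the alpha chain of the peptide editor, was dim in control BAT, at -1.06, -0.94, -0.35 and -1.06, and stood at 1.26, 0.86, 0.83 and 0.81 in KO mice. Its log2 change was 1.79 (standard error 0.18, adjusted p = 6.61e-05). H2-DMb1, a beta chain of H2-DM, was 0.94, 0.99, 1.32 and 0.97 in controls and 3.39, 3.20, 2.90 and 3.12 in KO mice. Its log2 change of 2.10 (standard error 0.14, adjusted p = 1.11e-05) had the smallest adjusted p of the 7 genes. H2-DMb1 has a close copy, H2-DMb2, so that a probe can take up RNA of both. The probe of H2-DMb2 was detected above background on 0 of the 4 BAT controls and 1 of the 4 KO arrays, and the share of the H2-DMb1 signal that comes from its copy was not tested. Cd74, the invariant chain, showed the smallest change of the set. It was 3.93, 3.98, 4.05 and 4.18 in controls and 5.82, 5.37, 5.13 and 5.41 in KO mice, a 2.63-fold difference (log2 change 1.39, standard error 0.15, adjusted p = 8.45e-05).

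Ciita, the regulator of the other 6, rose as well. Its level was -1.35, -0.24, -0.12 and -0.20 in control BAT and 1.83, 2.20, 1.28 and 1.22 in KO mice, so that the groups were apart although control replicate 1 stood far below the other controls. The difference in means was 2.11 (standard error 0.32, adjusted p = 0.000539), with the widest standard error of the set. Without control replicate 1 it was 1.82, and still past the threshold (adjusted p = 0.00242). The second probe of Ciita, well above background on 13 of 16 arrays, differed by 2.02 between the group means.

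Thus 7 of 7 genes passed an adjusted p of 0.05 in BAT and were higher in KO mice, whereas 61.5% of all 14280 genes tested passed in either direction and 27.5% passed and were higher. The median log2 change of the 7 was 1.81 (range 1.39 to 2.11), against -0.08 over all genes tested. The groups did not overlap for any of the 7 (two-sided exact permutation test for each gene, p = 0.0286, the smallest that 4 arrays against 4 allow), as for 57.1% of all genes and, with KO higher, 25.1%. Between 6.19% (Ciita) and 10.8% (Cd74) of the genes tested had a more positive change. Within slide 2, where the 4 KO arrays lay beside control 4 alone, the differences ran from 1.25 (Cd74) to 2.18 (H2-DMb1). The slide as a fixed block gave these same differences, because slide 1 held only controls, so both rest on that single control array. In that fit 7 of 7 genes passed (limma, adjusted p from 0.000491 to 0.024), where 46.8% of all genes did. Since the tissue was measured in bulk, more cells that express class II genes and more class II RNA per cell cannot be told apart.

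**Figure D1:**
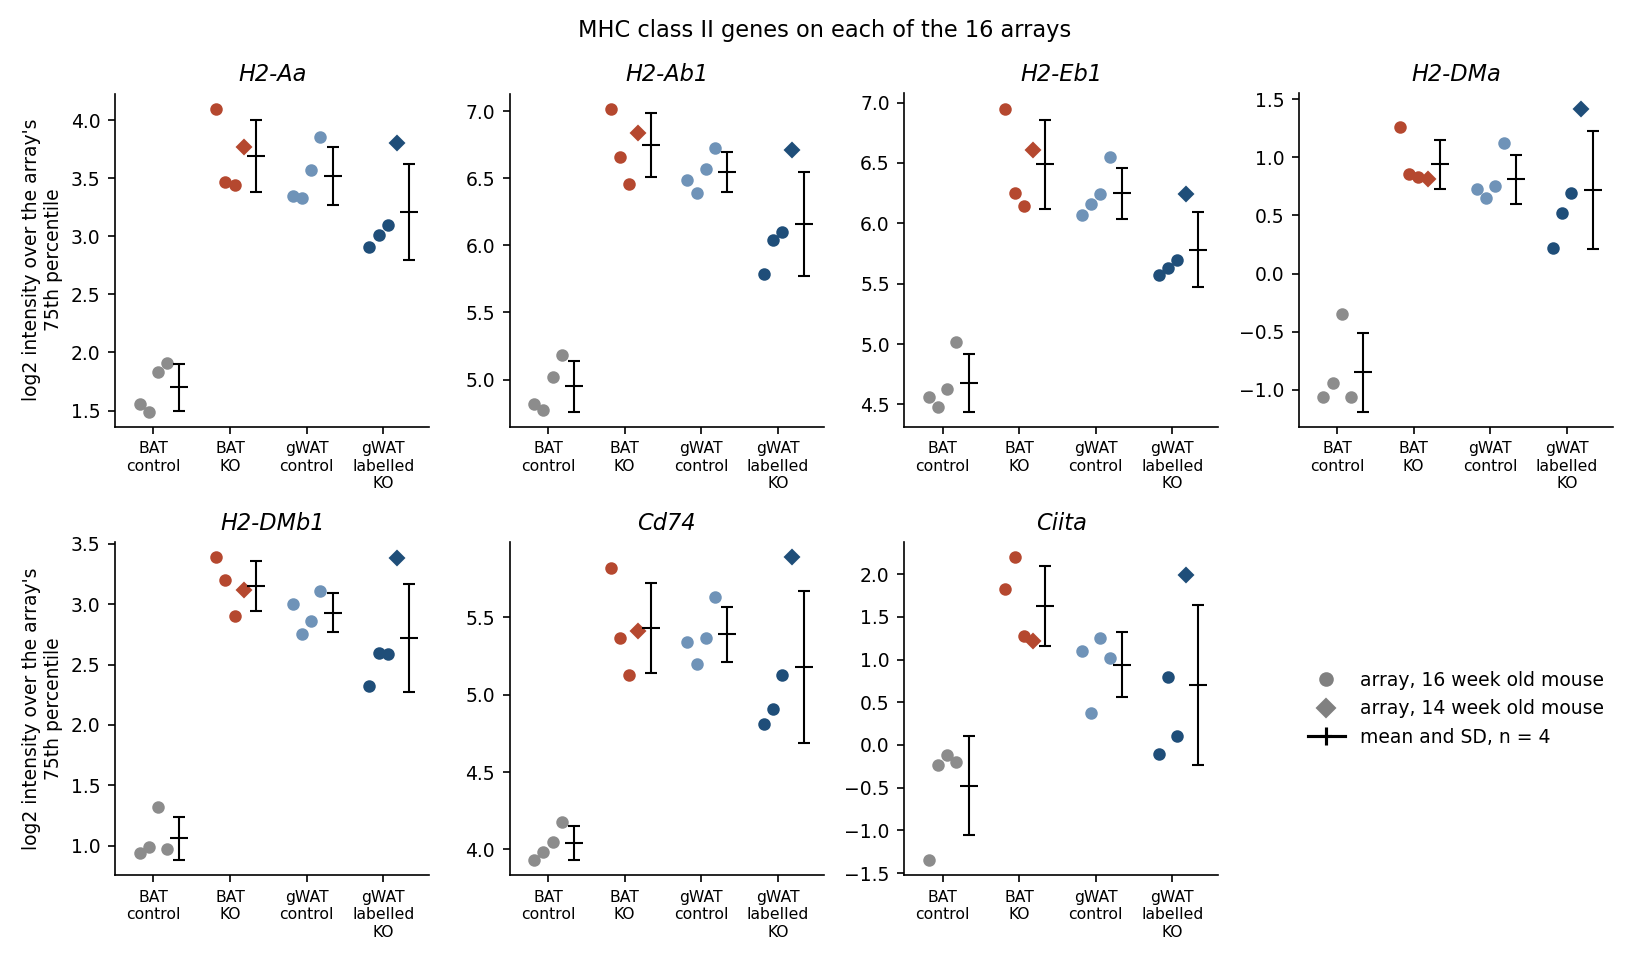
Level of each of the 7 MHC class II genes (log2 intensity over the 75th percentile of the array) on every array, by tissue and genotype, with the group mean and SD (n = 4) in black and the arrays of 14 week old mice as diamonds. For every gene the 4 BAT control arrays lie below all 4 BAT arrays of KO mice, and in gWAT the diamond is the highest KO-labelled array.

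In gWAT the same genes did not pass the test, and 0 of 7 were called, against 17.8% of the 14149 genes tested in either direction. All 7 group means were lower on the KO-labelled arrays, by 0.10 to 0.47 on the log2 scale (median -0.24, all genes 0.05), but 5 of them turned positive under spike-in scaling (0.06 to 0.28) and 1, H2-DMa, under median centring. At an unadjusted p under 0.05 the count of genes was 1. H2-Eb1, the beta chain of I-E, came nearest, at 6.07, 6.16, 6.24 and 6.55 in controls and 5.57, 5.63, 5.70 and 6.24 on the KO-labelled arrays (log2 change -0.47, 95% confidence interval -0.88 to -0.05, limma, adjusted p = 0.107). H2-Ab1 followed, at 6.49, 6.39, 6.57 and 6.73 against 5.79, 6.04, 6.10 and 6.71 (log2 change -0.38, interval -0.84 to 0.07, adjusted p = 0.205). For both genes replicates 1 to 3 lay below all controls, and replicate 4, the 14 week old mouse, lay among them.

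The same array was the highest of its group for the whole set, though for no gene did it meet the single-array criterion given further below. H2-Aa was 3.35, 3.33, 3.57 and 3.86 in controls and 2.91, 3.01, 3.10 and 3.80 on the KO-labelled arrays. H2-DMb1 was 3.0, 2.75, 2.86 and 3.11 against 2.32, 2.60, 2.59 and 3.38, and Cd74 was 5.34, 5.2, 5.37 and 5.63 against 4.81, 4.91, 5.13 and 5.89. In 5 of 7 genes (H2-Aa, H2-Ab1, H2-Eb1, H2-DMb1 and Cd74) replicates 1 to 3 were all below the lowest control. The share of all genes with this pattern was not counted, so the 5 cannot be set against a background. H2-DMa, at 0.73, 0.65, 0.75 and 1.12 in controls and 0.22, 0.52, 0.69 and 1.42 on the KO-labelled arrays, and Ciita, at 1.1, 0.38, 1.25 and 1.02 against -0.10, 0.80, 0.10 and 1.99, overlapped also without replicate 4, and the groups of all 4 arrays overlapped for every gene (24.1% of all genes stood apart). Replicate 4 was the highest of its group for 7 of 7 genes, and replicate 1 the lowest for 7 of 7. Leaving out replicate 4 moved the median change to -0.52 and brought 2 genes past the threshold, H2-Ab1 (-0.57, adjusted p = 0.0281) and H2-Eb1 (-0.62, adjusted p = 0.0246), with 22.3% of all genes called. Age is not separable from the animal here, because 1 array is all there is of the younger gWAT. Within slide 3, the mean of the 4 KO-labelled arrays lay 0.32 (Ciita) to 0.76 (H2-Eb1) below the single control, although replicate 4 lay above that control for H2-DMa, H2-DMb1, Cd74 and Ciita. The slide as a fixed block gave these same differences, which rest on that single control. In that fit 0 of 7 genes passed, where only 1.3% of all genes did.

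The change with genotype differed between the tissues for the whole set. In a single fit over 16 arrays, the interaction, the change in BAT minus that in gWAT, passed for 7 of 7 genes, against 48.3% of all 14820 genes tested in either direction and 21.0% in the positive one. It was 2.32 for H2-Aa (standard error 0.29, adjusted p = 3.46e-05), 2.18 for H2-Ab1 (0.26, 2.46e-05) and 2.28 for H2-Eb1 (0.28, 3e-05). For the H2-DM chains it was 1.89 in H2-DMa (standard error 0.32, adjusted p = 0.000335) and 2.31 in H2-DMb1 (0.27, 2.47e-05). Cd74 again gave the smallest value, 1.6 (standard error 0.29, adjusted p = 0.00055), and Ciita the largest, 2.35 (standard error 0.58, adjusted p = 0.00424). The median over the 7 was 2.28, against -0.07 over all genes. With the slide as a fixed block Ciita stayed at 2.15 but no longer passed (adjusted p = 0.132), whereas the other 6 did (all genes, 22%). That fit rests on the only control of each tissue that shared a slide with the KO or KO-labelled arrays.

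**Figure D2:**
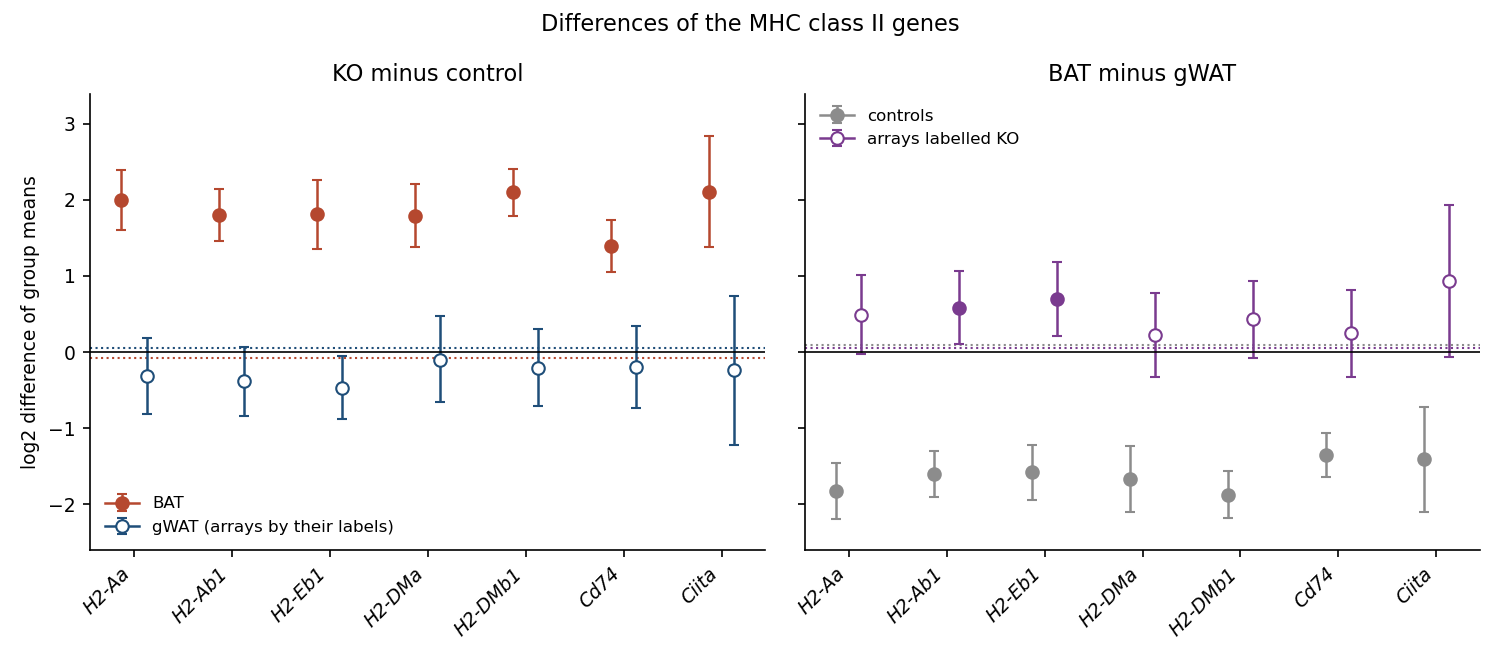
Log2 difference of group means for each MHC class II gene with its 95% confidence interval from limma, between genotypes in each tissue (left) and between tissues in each genotype (right). Filled points passed an adjusted p of 0.05 and open points did not, and dotted lines are the medians over all genes tested. The BAT points lie between 1.39 and 2.11, the gWAT points between -0.47 and -0.10.

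The controls show how the tissues compared without the deletion. BAT was below gWAT for 7 of 7 genes, each past the threshold, where 64.7% of all 14304 genes passed in either direction and 29.3% passed and were lower in BAT. The differences ran from -1.35 for Cd74 (standard error 0.13, adjusted p = 2.9e-05) to -1.88 for H2-DMb1 (standard error 0.13, adjusted p = 7.1e-06), with a median of -1.6. H2-Aa was thus 3.55-fold lower in control BAT than in control gWAT, H2-Ab1 3.03-fold and Ciita 2.66-fold. No control array of BAT reached a control array of gWAT for any of the 7 genes, as for 60.8% of all genes tested and, with BAT lower, 27.2%. Within slide 2, where control 4 of BAT lay beside controls 1 to 3 of gWAT, the differences were -1.1 (Ciita) to -1.90 (H2-DMb1). The slide as a fixed block gave these same differences, which rest on that single BAT array. In that fit 6 of 7 genes passed, where 46.9% of all genes did, and Ciita did not (-1.1, adjusted p = 0.143).

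Among the KO-labelled arrays the order of the tissues was the reverse, with smaller differences. All 7 means were higher in BAT, by 0.23 (H2-DMa) to 0.93 (Ciita), and 2 of 7 genes passed, where 46.1% of all 14449 genes passed in either direction and 23.4% passed and were higher in BAT. These were H2-Eb1 (0.70, standard error 0.22, adjusted p = 0.0273) and H2-Ab1 (0.58, standard error 0.21, adjusted p = 0.0476), and the groups overlapped for every gene, whereas 43.1% of all genes stood apart. The count rested on single arrays, with 6 of 7 without replicate 4 of gWAT and 0 of 7 without any of replicates 1 and 4 of BAT and 1 to 3 of gWAT. In this comparison the tissue and the slide cannot be told apart, because slide 2 held all the BAT arrays and slide 3 all the gWAT arrays.

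For all 7 genes the means of the groups fell in 1 order: control BAT lowest, then KO-labelled gWAT, control gWAT and BAT of KO mice. The step between the gWAT groups passed for no gene and depended on the scaling. It was reversed for H2-Aa, H2-DMa, H2-DMb1, Cd74 and Ciita under spike-in scaling and for H2-DMa under median centring. The share of all genes in this order was not counted. Control BAT did not overlap the next group for any of the 7, although for Ciita the gap was 0.025, and 28.0% of all genes stood apart in this direction. Neighbours above that overlapped for all 7 genes, so BAT of KO mice and control gWAT were within the spread of the arrays, whereas 28.2% of all genes stood apart with BAT of KO mice higher. The summed linear intensity of the 7 genes, in units of the 75th percentile, was 71.5 to 93.9 on the control BAT arrays and 216 to 344 in KO mice. In gWAT it was 211 to 277 in controls and 145, 163, 173 and 271 on the KO-labelled arrays.

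The other genes of the pathway, given from a fixed list of 13 of which 11 were tested in BAT, changed in both directions, as 7 rose and 2 fell in KO mice (of all genes tested, 27.5% rose and 34.0% fell). Of these, H2-Eb2, H2-Oa and H2-Ob entered the test only through the KO arrays, where they were bright, and so could only rise. Among the 8 genes above background on all 8 arrays, 4 rose and 2 fell, with a median of 0.81. Of the proteases that trim the invariant chain and make peptides, Ctss rose most (log2 change 3.28, standard error 0.37, adjusted p = 0.000113), from 1.79, 2.23, 3.79 and 2.61 in controls to 5.82, 6.13, 5.89 and 5.69. Ctsl rose by 1.52, the asparaginyl endopeptidase Lgmn by 1.57 and Ifi30, a thiol reductase of the endosome, by 1.58. Ctsb fell by 0.68 and Marchf8, a ubiquitin ligase that removes class II molecules from the surface, by 0.36. H2-Oa and H2-Ob form H2-O, which holds H2-DM in check and is best known in B cells and some dendritic cells. H2-Oa, above background on 1 of the 4 controls, was 2.14 higher by the group means (adjusted p = 0.000413), and H2-Ob, not well above background on any control array, was at least 3.14-fold higher (adjusted p = 0.000186). H2-Eb2, likewise above background on 1 of the 4 controls, was 1.1 higher (adjusted p = 0.0394). In gWAT 2 of 10 tested genes of this list passed and were higher on the KO-labelled arrays (all genes, 9.99%), Ctsl (0.96, adjusted p = 0.0127) and Ifi30 (1.57, adjusted p = 0.00702), and Ctss was at 1.27 (adjusted p = 0.0927). With the slide as a fixed block 0 of these 10 passed, where only 1.3% of all genes did. The falls in BAT depended on the scaling, as 9 genes of the list rose and 0 fell under spike-in scaling and 6 rose and 4 fell under Actb and Rplp0 scaling.

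Of the factors that recruit Ciita to class II promoters, 2 of 7 were higher and 2 lower in BAT, with a median of -0.05. These counts are near the shares of all genes, 27.5% and 34.0%. They were 4 higher and 1 lower under spike-in scaling, and 0 higher and 5 lower under Actb and Rplp0 scaling. Among the 6 factors above background on all 8 arrays, 1 was higher and 2 were lower. Rfx5, a subunit of the X box complex, was not well above background in control BAT and was at least 1.33-fold higher in KO mice (adjusted p = 0.0242), and Nfya of the Y box complex rose by 0.67. Rfxank and Nfyc, partners of these subunits, fell by 1.05 and 0.62. Of the interferon gamma axis 5 of 8 tested genes rose and 0 fell, against 27.5% and 34.0% of all genes, with a median of 0.73. This count was 3 higher and 2 lower under Actb and Rplp0 scaling (median 0.14) and 4 higher and 1 lower with the slide as a fixed block. Irf8 was 2.73 higher (adjusted p = 5.68e-06) and Socs1, above background on 3 of the 4 controls, 1.84 higher. Ifng itself was detected above background on 0 of the 4 BAT controls and 2 of the 4 KO arrays, and Irf1 differed by 0.37 (adjusted p = 0.239). A class II positive cell needs costimulatory molecules to activate T cells, but the list here also held Cd274 and Pdcd1lg2, which restrain them. Of its 5 tested genes 4 rose (all genes, 27.5%), and Cd274 did not pass. Among the 4 above background on all 8 arrays, 3 rose, and under Actb and Rplp0 scaling 3 rose and 1 fell. Cd86 rose by 2.58 (adjusted p = 0.00024) and Cd83 by 2.31. Cd40, not well above background in control BAT, entered the test only through the KO arrays. It was at least 2.24-fold higher (adjusted p = 0.000348).

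Genes of MHC class I, which presents peptides from inside the cell and is made by nearly all cells, had a median change of 0.40 in BAT, where 8 of 13 were higher and 1 lower (all genes, 27.5% and 34.0%). With the slide as a fixed block 4 were higher and 1 lower, and under Actb and Rplp0 scaling 1 was higher and 4 were lower, with a median of -0.19. H2-K1 rose by 0.84 (adjusted p = 0.000324), B2m by 0.77 (adjusted p = 0.00158) and Nlrc5, the relative of Ciita that drives class I genes, by 1.29 (adjusted p = 0.00238). In gWAT 0 of 13 were higher and 4 were lower on the KO-labelled arrays (of all genes, 7.85% were lower), namely Nlrc5 (-0.61, adjusted p = 0.0255), Psmb9 (-0.57), Tap2 (-0.53) and H2-K1 (-0.45). None of the 4 was lower and 2 of 13 were higher under spike-in scaling. Under median centring or with the slide as a fixed block 0 passed, where 9.78% and 1.3% of all genes did.

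Pan-leukocyte and macrophage markers moved with the class II genes in BAT, and markers of other leukocytes did so only in part. All 4 pan-leukocyte markers rose, Ptprc from -1.09, -0.90, -0.07 and -0.86 in controls to 2.17, 2.20, 2.09 and 1.90 (log2 change 2.82, standard error 0.21, adjusted p = 1.77e-05), and the median of the list was 2.78 (all genes, 27.5% higher). Cd53 was above background on 2 of the 4 controls, and the other 3 were so on all 8 arrays (median 2.74). Their summed intensity was 2.68 to 4.43 in control BAT and 15.4 to 21.5 in KO mice. Of 14 macrophage markers 12 rose, with a median of 2.71 (2.88 with the slide as a fixed block, again with 12 past the threshold), among them Mrc1 (3.15), Cd68 (3.07) and Adgre1 (2.84), and their sum went from 24.1 to 39.3 in controls to 116 to 175. Both lists had a larger median than the 7 class II genes, whose median was 1.81. Of 8 tested dendritic cell markers 6 rose and 2 fell, but Itgax, Flt3, Cd209a and Clec9a entered the test only through the KO arrays. Among the 4 markers above background on all 8 arrays 2 rose (Ccr7 and Batf3) and 2 fell, with a median of 0.79. Itgax, above background on 2 of the 4 controls, was 3.67 higher and Flt3, on 3 of the 4, 2.43 higher, Clec9a was at least 8.17-fold higher from a level not well above background, and Zbtb46 fell by 0.49. The summed level of the list was 125 to 175 in controls and 110 to 123 in KO mice, most of it the signal of the probe of Siglech, which fell, and the sum of the other markers was 0.728 to 1.54 in controls and 4.33 to 5.8 in KO mice. Among T cell markers 5 of 8 rose (2 of the 5 above background on all 8 arrays, 1, with 2 lower, under Actb and Rplp0 scaling, and 1, with 1 lower, with the slide as a fixed block), but Cd3e differed by -0.01 (adjusted p = 0.98). Of the B cell markers 4 were tested, and 1 rose (Fcrla) and 1 fell (Cr2), where 27.5% and 34.0% of all genes did. Fcrla was not well above background on any control array and entered the test only through the KO arrays, so it could only rise (at least 1.61-fold). Ms4a1, a surface protein of B cells, was detected above background on 0 of the 4 controls and 1 of the 4 KO arrays, and the summed level of the B cell list was 0.536 to 1.13 and 0.786 to 1.04. Of 3 tested neutrophil markers 0 rose and 1 fell (Csf3r), where 27.5% and 34.0% of all genes did. Their list summed to 115 to 145 in controls and 86.6 to 94.2 in KO mice, most of it the signal of Csf3r. Without Csf3r the sum was 0.232 to 4.2 and 1.36 to 3.14. Adipocyte markers went down, 6 of 6 in BAT (all genes, 34.0%), with Adipoq at -2.0 and a median of -1.15. Skeletal muscle markers also differed between arrays, with a sum of 0.375 to 1.08 in controls and 86.7, 0.906, 15.8 and 1.45 in KO mice. Replicate 1, the highest of these, was also the highest KO array for 6 of 7 class II genes, and without it all 7 still passed. The part of cell number or of other tissue in the class II change was not tested.

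**Figure D3:**
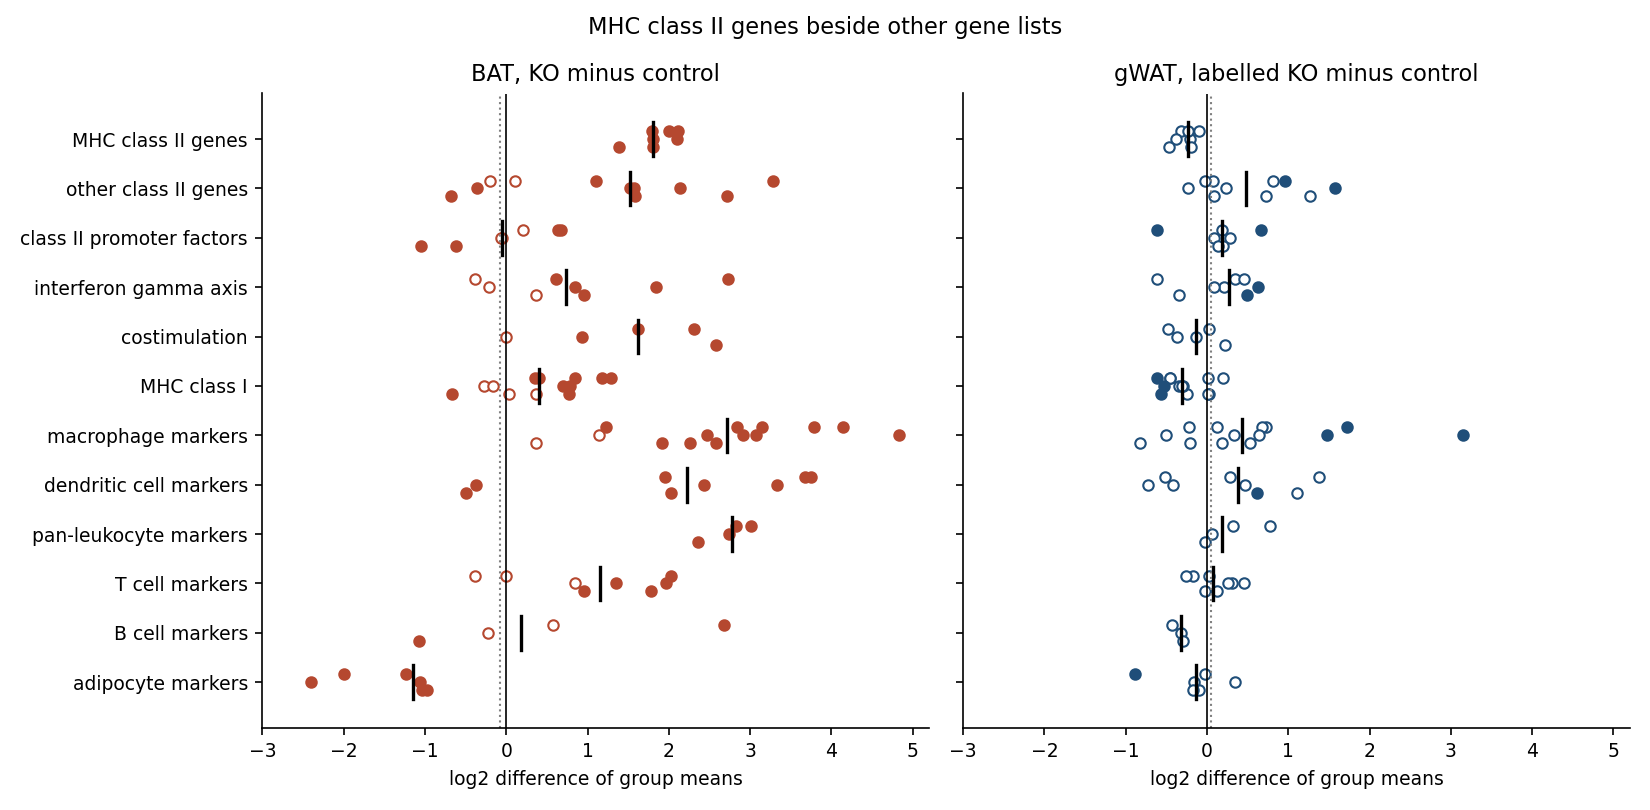
Log2 difference of group means for each tested gene of the MHC class II set and of 11 other lists, in BAT (left) and gWAT (right), with genes past an adjusted p of 0.05 filled, list medians as black bars and the median of all genes dotted. In BAT the class II genes lie between 1.39 and 2.11 and the pan-leukocyte markers between 2.36 and 3.01, and in gWAT neither list has a filled point.

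In gWAT the pan-leukocyte markers did not pass (0 of 4, median 0.19), and 3 of 14 macrophage markers were higher on the KO-labelled arrays, where 9.99% of all genes were (2 of 14 under quantile normalization, 1 of 14 under Actb and Rplp0 scaling). These were Gpnmb (3.15, adjusted p = 0.0166) and Trem2 (1.72, adjusted p = 0.0469), both known from lipid-laden macrophages, and Cd68 (1.48, adjusted p = 0.0365). With the slide as a fixed block 0 of 14 passed, where only 1.3% of all genes did. Replicate 4 was again the highest, with a summed macrophage level of 273, against 90.1, 125 and 165 in replicates 1 to 3 and 85.5 to 131 in controls. Its pan-leukocyte sum was 19.0, against 8.39, 10.1 and 10.8 in the other arrays of its group and 10.2 to 12.1 in controls. In control animals the macrophage and pan-leukocyte lists differed between the tissues as the class II genes did. Lower in BAT than in gWAT were 14 of 14 macrophage markers (median -1.89) and 4 of 4 pan-leukocyte markers (median -1.81), where 29.3% of all genes were.

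**Figure D4:**
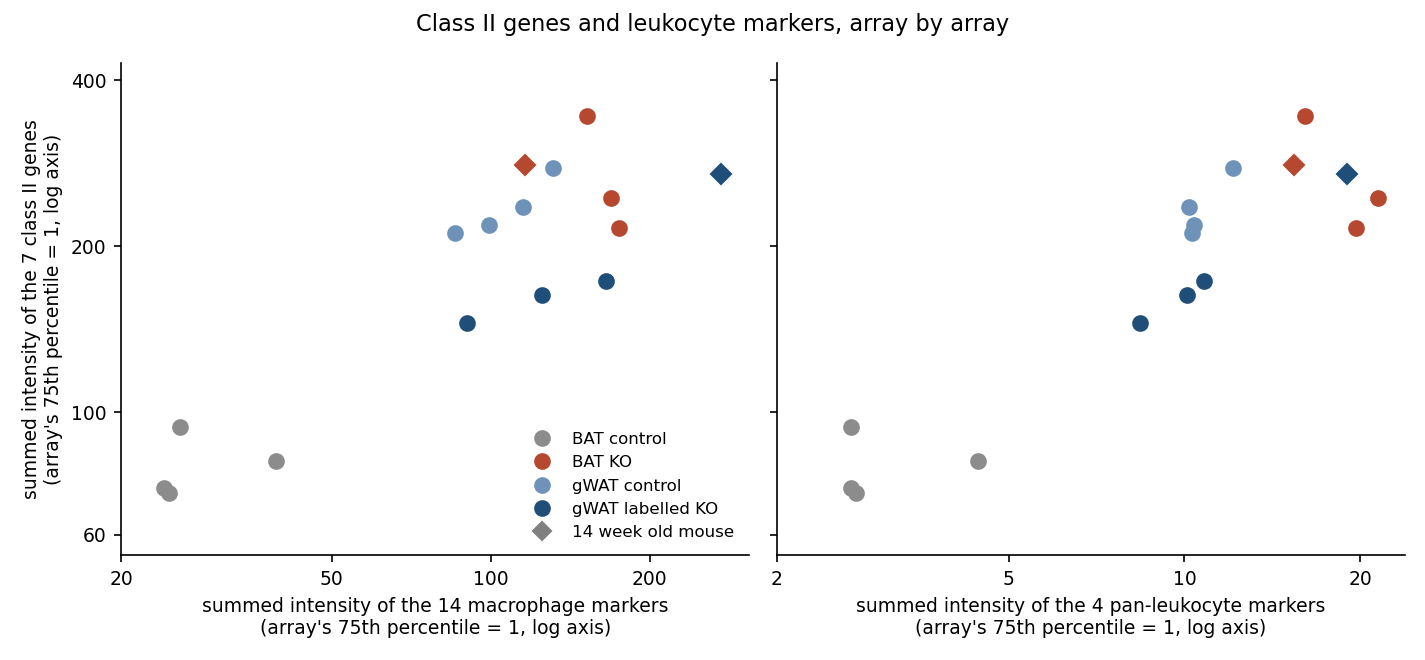
Summed linear intensity of the 7 MHC class II genes against that of 14 macrophage markers (left) and 4 pan-leukocyte markers (right) on each of the 16 arrays, in units of the 75th percentile of the array and on log axes, with 14 week old mice as diamonds. Control BAT lies apart at the lower left, and the KO-labelled gWAT arrays have class II sums of 145, 163, 173 and 271 against 211 to 277 in their controls.

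The 7 genes also followed each other across arrays. Over the 16 arrays, which share the differences between 4 groups, Pearson correlations between pairs of the 7 ran from 0.838 (H2-Eb1 with Ciita) to 0.993 (H2-Aa with H2-Ab1), with a median of 0.968 over 21 pairs. Within the 4 KO-labelled gWAT arrays the median was 0.982, where replicate 4 sets the spread, and within the 4 control arrays of BAT it was 0.476. Outside the set, the genes whose pattern over 16 arrays was most like the mean of the 7, among 14788 candidates, were Dennd1c (r = 0.966), Lyz1 (0.965), Inpp5d (0.961), Itga4 (0.96), Camk1d (0.96) and Emb (0.957). Within the 8 BAT arrays they were Phf11b and Pmp22 (0.994 each) and Rassf2, Trim30d, Plekha1 and Fcgr4 (0.993 each), and within the 8 gWAT arrays Il27ra (0.972), Lama2 (0.961), AI662270 (0.957), Kitl (0.951), Emb (0.942) and Il10ra (0.941). Emb, an immunoglobulin-like surface protein, was the only gene in both the list over 16 arrays and a list of 1 tissue. All of these are descriptions over arrays that share their groups and their scaling.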

How the data were processed

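RNA of BAT and gWAT was hybridized to 16 1-colour arrays, 4 per tissue and genotype. The authors deposited the scanner's processed signal, a background-subtracted intensity of each spot (Agilent Feature Extraction 10.7.1.1, per the file headers), and a table of normalized values, described in the methods as made with GeneSpring, which in these files equals the intensity divided by the 75th percentile of the array as a linear ratio. The array design was made on mouse build mm9, so no coordinates are combined with those of the promoter table. Here spots of 1 probe were averaged and log2(intensity) minus the log2 75th percentile was taken. A gene was found for 91.9% of the 35886 RefSeq-annotated probes, and 23611 probes stayed unnamed. The brightest probe by mean over 16 arrays stood for a gene. Tests were limited to genes detected above background (at least 0.5 of their spots) on every array of 1 or both of the groups. Groups were compared with limma 3.58.1 in R 4.3.3 within the 8 arrays of a comparison, and the interaction over all 16, with Benjamini-Hochberg adjustment at 0.05 and no covariates. The fits were tested on simulated data. Where a probe was not well above background on any array of a group, a fold is given as a bound against the dimmest probe well above background. Precision is limited by 4 arrays per group.

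The files hold no mean foreground signal, so the normexp alternative used the median signal with an offset of 50. Other alternatives were quantile normalization, median centring, spike-in scaling, scaling by Actb and Rplp0, the deposited table, other filters and probes, slide and replicate blocks, the methods' t-test and leaving out each array. The class II genes, the gene lists and the tests were chosen with earlier results of these data known. Genes named outside the 7 were, per list, those of lowest adjusted p and a set of defining genes, and further genes that spell out a count of 5 or fewer were chosen after their values were seen. The comparison of protein sequences was not made here. Some genes of the lists are not reported here.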

Additional observations from a re-analysis of the deposited data

Results flagged for a closer look

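For each of the 7 genes, the 4 groups of 4 arrays (28 in all) were searched for a single array far from the rest (Dixon's ratio of its gap to the whole range, at the 95% critical value), a criterion that chance meets in about 1 of 20 groups, and 3 met it. Ciita in control BAT had a ratio of 0.902, from replicate 1 at -1.35 against -0.24, -0.12 and -0.20. H2-DMa in BAT of KO mice had a ratio of 0.889, from replicate 1 at 1.26 against 0.86, 0.83 and 0.81. H2-DMb1 in control BAT had a ratio of 0.877, from replicate 3 at 1.32 against 0.94, 0.99 and 0.97. Replicate 3 of control BAT also had the highest summed macrophage level of its group, 39.3 against 24.1 to 25.8.

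The change with genotype differed between BAT and gWAT for each of the 7 genes (interaction in limma over 16 arrays). The difference was 2.32 for H2-Aa, 2.18 for H2-Ab1, 2.28 for H2-Eb1, 1.89 for H2-DMa, 2.31 for H2-DMb1, 1.6 for Cd74 and 2.35 for Ciita, and the largest adjusted p was 0.00424 (Ciita).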

How the results depend on the processing

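In BAT, all 175 values of the 7 genes under 25 alternatives kept their direction and passed the threshold (0.80 to 2.67), and the count stayed at 7 when any array was left out. The all-gene median there was 0.47 under spike-in scaling and -0.67 under Actb and Rplp0 scaling, against -0.08, and among called genes the part that rose went from 44.8% to 80.8% and 17.7%. In controls, 174 of 175 values for BAT against gWAT passed, and for the interaction 209 of 210, the exceptions being Ciita with the slide as a fixed block.

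In gWAT, where 0 genes were called, the methods' unadjusted t-test called 1, and leaving out 1 array gave 0 to 2 calls. With 0 calls in the main fit none could be lost or turned, and signs of values that did not pass changed. Under spike-in scaling, which moved the all-gene median from 0.05 to 0.43, the changes were 0.0603 for H2-Aa, 0.28 for H2-DMa, 0.17 for H2-DMb1, 0.18 for Cd74 and 0.14 for Ciita. H2-DMa was 0.024 under median centring, 0.0056 without control replicate 4 and 0.067 without KO-labelled replicate 1, and Ciita was 0.029 without that array, whereas leaving out KO-labelled replicate 4 gave -0.33 and -0.67. The gWAT count over all genes, 2525, was 184 with the slide as a fixed block, 1138 with no filter, 1384 under median centring, 5636 under spike-in scaling, 1080 to 3211 with 1 array left out, 4040 in 1 fit of 16 arrays and 1618 by the methods' t-test after Benjamini-Hochberg adjustment (4673 unadjusted), and the interaction's 7162 was 3265 with the slide as a fixed block. The part of the gWAT calls that was higher, 56.0%, was 93.8% under spike-in scaling, 71.0% under median centring and 35.9% with the slide as a fixed block.

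BAT of KO mice against KO-labelled gWAT rested on 2 calls. It gave 0 under quantile normalization, spike-in scaling, Actb and Rplp0 scaling, no filter and the methods' t-test after adjustment, 1 under median centring, normexp and the mean of all probes, and 5 without both 14 week old mice, an alternative chosen after seeing the data, as were the values within a slide. Leaving out 1 array gave 0 to 6. The slide could not be fitted as a block there.

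Arrays with the same replicate number did not deviate together in every pair of any comparison (correlations from -0.159 to 0.55), so pairing by number was not shown. For controls of BAT and gWAT 3 of 4 pairs were above 0.1 (0.182, 0.124 and 0.125) and 5 of 8 arrays correlated best with their own number, and whether these tissues share animals remains unknown. With the replicate number as a block the gWAT count over all genes was 1087, the count of class II genes in BAT against KO-labelled gWAT was 1, and no other count of class II genes changed. How far the dim probes of H2-DMa and Ciita understate their changes was not tested.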
